A study of Mus musculus with 6 samples.

Results

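Oncofetal and imprinted genes that the adult liver keeps low, together with 2 repressors of such genes, were followed in livers that lack the splicing factor SRSF3 in hepatocytes. The set holds Afp, H19, Igf2, Gpc3, Peg3, Bex1, Impact, Phlda2, Zbtb20 and Zhx2, 10 genes with 121 of the 229581 probe sets on the array. All probe sets that the array annotation assigned to exactly 1 of these symbols were taken, and no probe set assigned to several genes named any of them. The genes were selected on their SRSF3HKO and WT values on these arrays, so their differences are given as a description, with no p-value, and any count of them past a threshold is descriptive too. The SRSF3HKO group holds 3 liver samples of mice with a hepatocyte knockout of Srsf3, and the WT group holds 3 samples of wild-type littermates. All mice were untreated and 1 month old, and the labels name neither sex, strain nor the driver of the deletion. Whether the WT arrays stand for 3 different mice is not stated, and the p-values then cover only the spread among these samples, which may be technical. Every level below is log2(intensity + 16), the median over a gene's probe sets, and every difference is SRSF3HKO minus WT on that scale, which compresses the changes of dim genes.

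The fetal liver secretes alpha-fetoprotein (Afp) and makes large amounts of the long noncoding RNA H19 and of insulin-like growth factor 2 (Igf2), and all of these are shut down after birth. In the mouse this postnatal silencing of Afp depends on the zinc finger repressor Zbtb20 and on the zinc finger and homeobox factor Zhx2, whose loss also raises H19 and Gpc3, and liver tumours often express these genes again. H19, Igf2, Peg3, Impact and Phlda2 are imprinted, that is, transcribed mainly from the maternal or the paternal copy.

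The sequences around the start sites of Afp, Gpc3 and Phlda2 are shown because they differ in the motifs and CG dinucleotides they hold. They are RefSeq windows of 250 bases before and 50 after the start (GRCm38.p6), and windows of 7 of the 10 genes were used, 10 windows in all with 4 for Igf2; H19, Impact and Zhx2 are not among them. Capitals mark matches on either strand to GTTAAT, a half-site of the hepatocyte factor HNF1, to TATAAA, the TATA box, and to CCAAT, the CCAAT box.
Afp start-site window (chr5:90490464-90490763, strand +): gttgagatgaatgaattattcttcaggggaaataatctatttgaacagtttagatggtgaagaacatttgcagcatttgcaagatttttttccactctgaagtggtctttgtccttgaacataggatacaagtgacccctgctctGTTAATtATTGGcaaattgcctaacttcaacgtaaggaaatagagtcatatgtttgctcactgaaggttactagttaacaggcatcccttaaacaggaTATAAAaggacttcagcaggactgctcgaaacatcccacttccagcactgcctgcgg
Gpc3 start-site window (chrX:52613925-52614224, strand -): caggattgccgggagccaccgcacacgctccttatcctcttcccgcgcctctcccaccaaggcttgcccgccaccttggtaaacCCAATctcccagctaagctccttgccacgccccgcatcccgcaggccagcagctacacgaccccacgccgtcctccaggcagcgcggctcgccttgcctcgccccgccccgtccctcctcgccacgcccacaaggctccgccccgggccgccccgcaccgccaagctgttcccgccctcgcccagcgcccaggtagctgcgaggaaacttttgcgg
Phlda2 start-site window (chr7:143502475-143502774, strand -): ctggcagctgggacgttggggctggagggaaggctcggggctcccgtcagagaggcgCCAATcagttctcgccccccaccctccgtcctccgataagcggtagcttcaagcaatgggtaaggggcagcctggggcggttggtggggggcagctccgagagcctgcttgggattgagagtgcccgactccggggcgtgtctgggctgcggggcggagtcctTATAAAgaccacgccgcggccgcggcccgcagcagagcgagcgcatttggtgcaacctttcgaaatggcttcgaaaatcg
In the Afp window the GTTAAT match began at position -105 and the CCAAT match, on the other strand as ATTGG, at position -98, counted from the RefSeq start, and no matches overlapped. Of the 7 genes with windows, Afp was the 1 with a GTTAAT match, which 7.1% of all 32851 windows of this length hold. TATAAA occurred in 13.6% of them and in the windows of Afp and Phlda2, at positions -7 and -30, and CCAAT occurred in 37.4%. CG dinucleotides numbered 3 in the Afp window, 30 in that of Gpc3 and 26 in that of Phlda2, against a median of 7 over all windows. H19 also carries the precursor of a microRNA, whose mature forms lie inside the RefSeq H19 gene and are printed with their seed (bases 2 to 8) in capitals. The arrays' core probe sets did not measure them as mature forms.
mmu-miR-675-5p (chr7:142577112-142577133, strand -): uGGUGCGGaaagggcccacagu
mmu-miR-675-3p (chr7:142577078-142577099, strand -): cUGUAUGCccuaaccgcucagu

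Median intensity lay between 75.3 and 89.6 on the 6 arrays. Across genes, Pearson's r was 0.979 to 0.984 between WT arrays and 0.940 to 0.965 between SRSF3HKO arrays, and genes are not independent replicates. The labelled tissue was borne out by 8 measured hepatocyte markers, with albumin (Alb) at 13.75 to 13.95 on all arrays. The list as a whole was lower in SRSF3HKO, with a mean of 13.20 to 13.25 in WT and 12.80 to 13.04 in SRSF3HKO. Its summed intensity was 87590 to 88129 in WT and 67718 to 81098 in SRSF3HKO, and both were lowest on SRSF3HKO replicate 1. Srsf3 itself, over 14 probe sets, stood at 9.79, 9.24 and 9.35 in WT and 10.30, 9.10 and 9.78 in SRSF3HKO (difference 0.26 ± 0.31 SE, limma adjusted p = 0.626), and as the deleted part of Srsf3 is not stated, this level checks nothing about the labels. The Y-linked gene Eif2s3y was above the detection floor of 5.35 in WT replicates 1 and 2 and in SRSF3HKO replicate 3 and below it on the other 3 arrays. In these bulk samples fewer cells of a type and less RNA per cell cannot be told apart.

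Of the 10 genes, 8 were higher on all 3 SRSF3HKO arrays than on any WT array, and Zbtb20 and Zhx2 overlapped between the groups. Over all 11709 genes tested the groups failed to overlap in that direction for 21.6% and in either direction for 35.6%. In the fit over all genes 6 of the 10 lay past limma's threshold as higher (Afp, Gpc3, Peg3, Bex1, Impact and Phlda2) and 0 as lower, against 6.85% and 5.03% of all genes tested. Nothing is read from these counts, since the same comparison chose the genes. All 10 passed the filter on mean level, but 3 of them (Afp, Bex1 and Phlda2) had a WT mean below the floor and passed through their SRSF3HKO arrays. The median difference of the 10 genes was 1.98, beside 0.08 for all genes tested. Without any 1 WT array the 6 became 3, and without SRSF3HKO replicate 1 or 3 they became 7. Groups that do not overlap cannot come to overlap when an array is left out, so leaving out arrays tests nothing about the separation of the 8 genes. Zbtb20 separated as lower without SRSF3HKO replicate 1, as did Zhx2 without WT replicate 2, beside 19.6% and 19.8% of all genes tested without the same array.

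**Figure D1:**
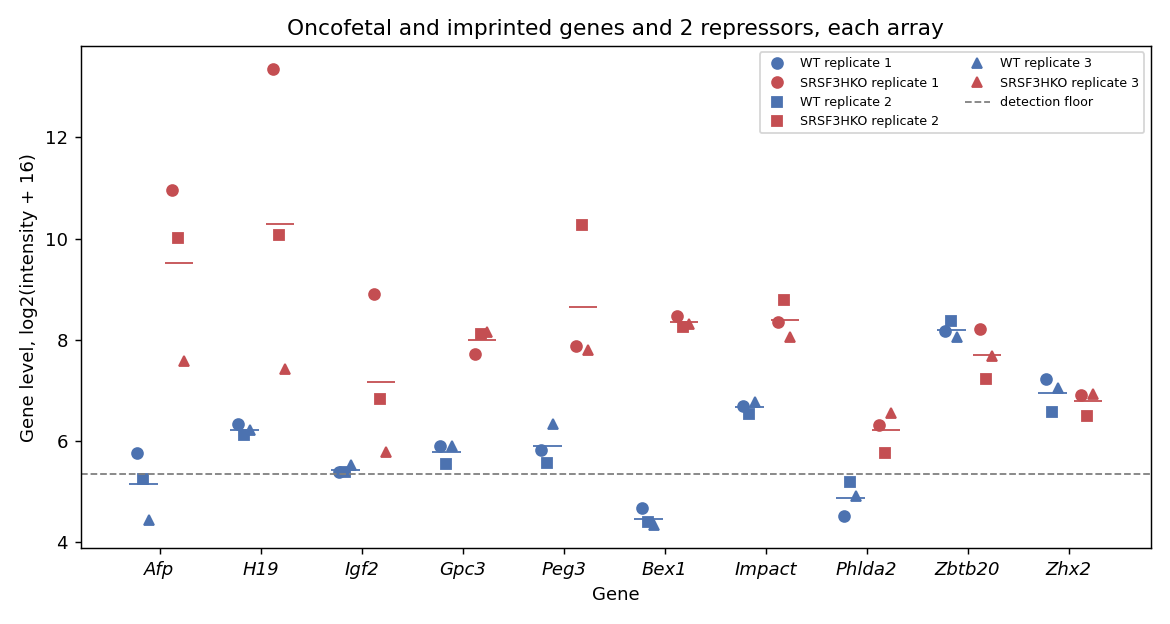
Level of each gene on each array as log2(intensity + 16), with WT in blue, SRSF3HKO in red, a marker shape per replicate, a short line at each group mean and the detection floor of 5.35 dashed. The 8 oncofetal and imprinted genes show 3 red points above all blue points, while those of Zbtb20 and Zhx2 overlap.

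Afp, the fetal counterpart of albumin in serum, stood at 5.76, 5.24 and 4.44 on the WT arrays and at 10.96, 10.02 and 7.58 on the SRSF3HKO arrays. The lowest SRSF3HKO array lay 1.82 above the highest WT array, and 1 of 3 WT arrays was above the floor. The difference of the means was 4.37 ± 0.77 (SE), which with dim arrays set at the floor is at least 16.4-fold, at SDs of 0.67 in WT and 1.74 in SRSF3HKO (n = 3 each). SRSF3HKO replicate 1 was the highest and replicate 3 the lowest of its group. Of the 18 Afp probe sets, 17 had all SRSF3HKO arrays above all WT arrays. Probe set 5438897, with the highest difference (5.54), read 5.61, 5.29 and 4.34 in WT and 12.29, 11.06 and 8.51 in SRSF3HKO. The exception, probe set 4751121, lay below the probe set floor of 5.62 on all arrays, between 4.01 and 5.15.

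H19, the noncoding RNA of the maternal allele, had the widest spread among the SRSF3HKO arrays. Its levels were 6.33, 6.12 and 6.22 in WT and 13.36, 10.08 and 7.42 in SRSF3HKO. The WT arrays lay within 0.20 of each other, whereas the SRSF3HKO arrays spanned 5.93, and the lowest of them was still 1.10 above the highest WT array. The difference was 4.06 ± 1.20 (SE) and became 2.53 without SRSF3HKO replicate 1 and 5.49 without SRSF3HKO replicate 3. All 6 H19 probe sets had their highest reading on SRSF3HKO replicate 1, and their differences lay between 3.58 and 4.46. The brightest, probe set 5131057, read 7.28, 7.87 and 7.75 in WT and 14.74, 11.55 and 7.33 in SRSF3HKO, so that on it SRSF3HKO replicate 3 was inside the range of WT.

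Igf2, the growth factor gene expressed from the paternal allele beside H19, had the same order of SRSF3HKO arrays as H19 and a smaller difference. It stood at 5.38, 5.39 and 5.52 in WT, just above the floor, and at 8.90, 6.83 and 5.78 in SRSF3HKO. SRSF3HKO replicate 3 exceeded the highest WT array by 0.25, and the difference of 1.74 ± 0.66 (SE) was 0.87 without SRSF3HKO replicate 1. Its probe sets disagreed, with differences from -0.17 to 3.14 over the 15, and 6 of the 15 kept the groups apart. Probe set 4978647 read 4.91, 5.92 and 5.47 in WT and 10.23, 7.76 and 6.21 in SRSF3HKO, whereas probe set 5183739 stayed between 4.48 and 4.98 on all arrays, below the probe set floor. Of the 15 probe sets, 5 had a mean below that floor and 12 had their highest value on SRSF3HKO replicate 1. The files do not say which probe set lies in which of the Igf2 first exons.

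Gpc3, the X-linked glypican that tethers growth factors at the cell surface and is a marker of hepatocellular carcinoma, was higher by nearly the same amount on each SRSF3HKO array. Its levels were 5.91, 5.54 and 5.89 in WT and 7.71, 8.11 and 8.16 in SRSF3HKO. The difference was 2.21 ± 0.21 (SE), a 4.64-fold ratio, and lay between 2.09 and 2.36 with any 1 array left out. All 11 probe sets separated the groups, with differences of 1.51 to 2.81. Here SRSF3HKO replicate 1 was the lowest of its group, the reverse of its place for Afp and H19.

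Bex1, a small adaptor protein of the X-linked brain-expressed family, had the smallest spread among the SRSF3HKO arrays of the 10 genes. It stood at 4.67, 4.40 and 4.33 in WT and at 8.47, 8.25 and 8.32 in SRSF3HKO. No WT array was above the floor and all SRSF3HKO arrays were, so the difference of 3.88 ± 0.18 (SE) is a ratio of at least 8.0-fold. The SRSF3HKO arrays spanned 0.22, and the gap between the groups was 3.58. Of its 9 probe sets 7 separated the groups. The other two had lower means in SRSF3HKO, 5584235 near the bottom of the scale and 5316639 bright on all arrays, at 10.22, 10.29 and 9.98 in WT and 9.46, 10.08 and 9.59 in SRSF3HKO. What probe set 5316639 detects besides Bex1 was not tested.

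**Figure D2:**
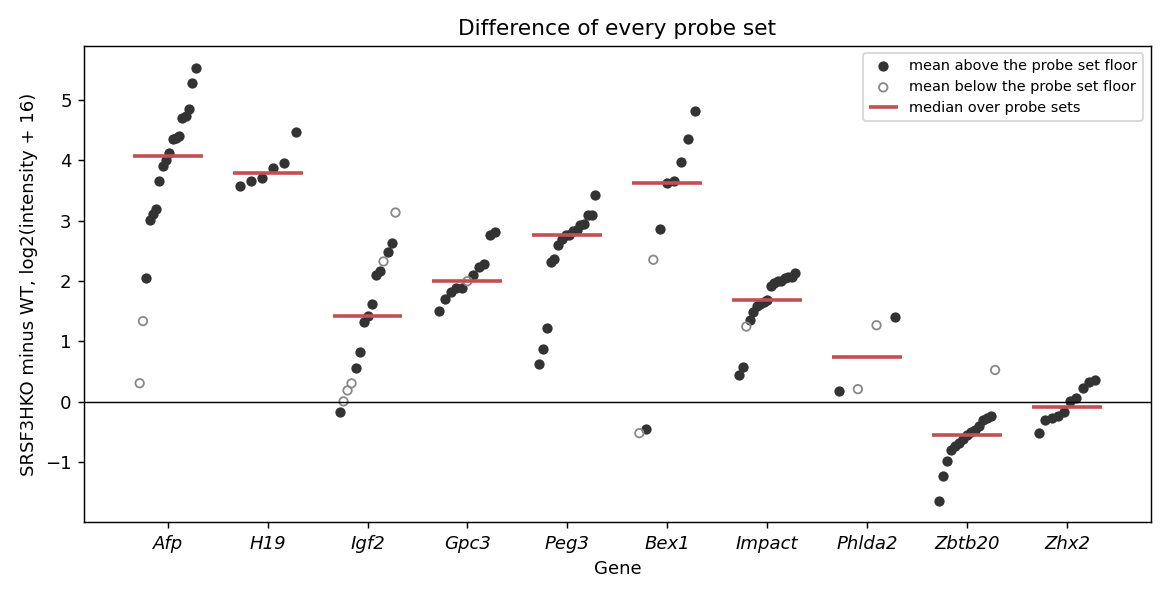
Difference of each probe set (SRSF3HKO minus WT, log2(intensity + 16)), sorted within each gene, with filled points for probe sets whose mean lies above the probe set floor of 5.62, open points for the others and a red line at the median over probe sets. All H19 and Gpc3 points lie above 1.5, Igf2 ranges from -0.17 to 3.14, 2 Bex1 points lie below 0, and 14 of 15 Zbtb20 points lie below 0.

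Peg3, a paternally expressed zinc finger gene that acts in growth and metabolism, stood at 5.82, 5.55 and 6.33 in WT and at 7.87, 10.27 and 7.81 in SRSF3HKO. Here SRSF3HKO replicate 2 was the high array, and the other two lay within 0.07 of each other. The difference of 2.75 ± 0.61 (SE) became 1.94 without SRSF3HKO replicate 2. All 16 probe sets had their highest reading on that array, and 13 of the 16 separated the groups. Differences between probe sets ran from 0.63 to 3.43.

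Impact, a paternally expressed inhibitor of the amino acid sensor kinase GCN2, stood at 6.69, 6.53 and 6.78 in WT and at 8.35, 8.79 and 8.05 in SRSF3HKO. The groups were 1.27 apart at their nearest arrays, and the difference was 1.73 ± 0.23 (SE), a 3.32-fold ratio. SRSF3HKO replicate 2 was highest for 13 of its 17 probe sets, and 16 of the 17 separated the groups. With any 1 array left out the difference stayed between 1.53 and 1.91.

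Phlda2, a maternally expressed gene known for restraining placental growth, was dim throughout. It stood at 4.52, 5.18 and 4.90 in WT, below the floor on all 3 arrays, and at 6.30, 5.76 and 6.56 in SRSF3HKO. The difference of 1.34 ± 0.25 (SE) is a ratio of at least 1.81-fold. It rests on 4 probe sets, of which 2 separated the groups. Probe set 5022915 read 4.93, 5.34 and 5.22 in WT and 6.61, 6.18 and 6.93 in SRSF3HKO, and the brightest, 4725482, showed 8.88, 8.59 and 8.52 against 8.95, 8.63 and 8.95. The gene's difference ran from 0.67 to 2.25 over the settings other than left-out arrays, which change the pseudocount and the summary over probe sets among others.

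The SRSF3HKO arrays did not share a single order over the 8 genes. SRSF3HKO replicate 1 was highest for Afp, H19, Igf2 and Bex1, replicate 2 for Peg3 and Impact, and replicate 3 for Gpc3 and Phlda2. Markers of other cell types moved with the first of these arrays. All 11 macrophage markers had their highest level on SRSF3HKO replicate 1, with a list mean of 10.99 there against 8.38 and 8.65 on the other SRSF3HKO arrays and 8.30 to 8.43 in WT, and all 11 were above the floor. Their summed intensity was 3908 to 4349 in WT and 4602 to 27044 in SRSF3HKO. The macrophage receptor gene Marco rose (difference 2.78 ± 0.73 SE, limma adjusted p = 0.0450), 1 of 11 in the list, beside 6.85% higher among all genes tested. Its call was lost in 8 of 16 alternatives. These were each WT array left out (limma adjusted p = 0.125 to 0.155), a pseudocount of 64 (0.0656), quantile normalization (0.0537), averaged probe sets (0.0634), no filter on dim genes (0.0552) and Y-linked signal in the model (0.0976). The part of macrophage RNA in the levels of Afp, H19 and Igf2 was not tested, and without that array their differences were 3.65, 2.53 and 0.87.

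**Figure D3:**
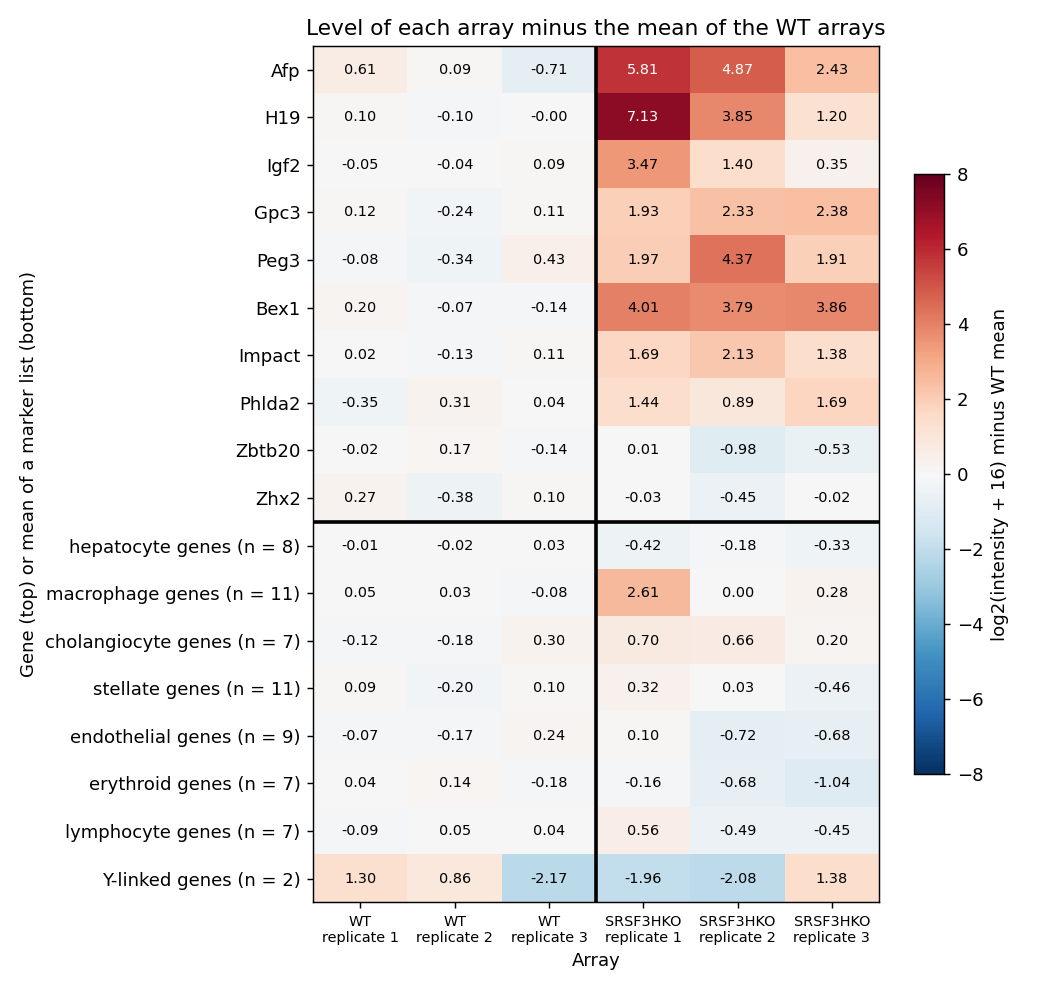
Each cell gives the level on an array minus the mean of the WT arrays (log2(intensity + 16)), for the 10 genes above the line and for the mean of each marker list below it. SRSF3HKO replicate 1 has the darkest cells for H19 and Afp and the highest macrophage mean, while the Bex1 and Gpc3 rows have even colour over the 3 SRSF3HKO arrays.

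Of the other marker lists, 0 of 6 cholangiocyte and 0 of 5 lymphocyte genes tested passed limma's test, beside 11.9% of all genes tested. The lymphocyte list was also highest on SRSF3HKO replicate 1, with a mean of 6.27 against 5.22 and 5.26 on the other SRSF3HKO arrays and 5.62 to 5.76 in WT, and a summed intensity of 639 there against 175 to 296 on the other 5 arrays. The stellate list's mean was also highest there, at 8.20. It was 7.91 and 7.41 on the other SRSF3HKO arrays and 7.68 to 7.98 in WT. Of its 11 genes measured, 3 had their highest level on SRSF3HKO replicate 1. The cholangiocyte list's mean was highest there too, at 6.89, against 6.86 and 6.39 on the other SRSF3HKO arrays. The part of these lists in the levels of Afp, H19 and Igf2 was not tested. The summed intensity of the cholangiocyte list was 540 to 782 in WT and 892 to 3107 in SRSF3HKO. Its brightest gene on SRSF3HKO replicate 1 was Spp1, at 11.41. The list's mean level overlapped, at 6.01 to 6.49 in WT and 6.39 to 6.89 in SRSF3HKO. Of its 6 genes tested 5 had positive differences and 1, Krt19, a negative one (-0.31). Among all genes tested 5.03% passed limma's test as lower. Single genes fell in the stellate (Col3a1, 1 of 11), endothelial (Kdr, 1 of 9), erythroid (Alas2, 1 of 5) and hepatocyte (Serpina1c, 1 of 8) lists, at limma adjusted p = 0.0434, 0.0452, 0.0228 and 0.00898. Each of the 4 lost its call when WT replicate 1 or WT replicate 2 was left out (limma adjusted p = 0.0550 to 0.160), and over all 16 alternatives Col3a1 and Kdr lost it in 7 each, Alas2 in 3 and Serpina1c in 2. The erythroid list had a mean of 6.73 to 7.05 in WT and 5.88 to 6.76 in SRSF3HKO. Of its 5 genes tested 4 had negative differences and 1, Ermap, a positive one (0.46). The Y-linked signal cut across the genotypes. Among the arrays with it (2 WT, 1 SRSF3HKO) the differences of Afp, H19 and Igf2 were 2.08, 1.20 and 0.39, and among those without it (1 WT, 2 SRSF3HKO) they were 6.05, 5.50 and 2.34. For Gpc3 and Bex1 they were 2.43 and 3.79 with the signal and 2.02 and 4.03 without it. These are single arrays on 1 side. With Y-linked signal in the model the differences of Afp, H19 and Igf2 were 4.06, 3.35 and 1.37, against 4.37, 4.06 and 1.74 without it. Those of Gpc3 and Bex1 were 2.23 and 3.91, against 2.21 and 3.88. The part of the Y-linked signal was not tested beyond this fit.

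Zbtb20, the repressor that silences Afp after birth, stood at 8.17, 8.36 and 8.05 in WT and at 8.21, 7.22 and 7.67 in SRSF3HKO. SRSF3HKO replicate 1, the array with the highest Afp, was within the WT range. The difference was -0.50 ± 0.27 (SE), and -0.75 without that array. Its probe sets leaned one way, with 14 of 15 lower on average in SRSF3HKO and 7 of 15 separating the groups. Probe set 4574714 differed most (-1.64), at 8.26, 8.36 and 8.05 in WT and 6.65, 6.47 and 6.64 in SRSF3HKO, and here SRSF3HKO replicate 1 was low as well. The files do not place the probe sets on Zbtb20 transcripts.

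Zhx2, the factor behind the strain differences in adult Afp among mice, stood at 7.22, 6.57 and 7.05 in WT and at 6.91, 6.50 and 6.93 in SRSF3HKO. All SRSF3HKO levels except the lowest lay inside the WT range. The difference was -0.17 ± 0.24 (SE), and 5 of its 10 probe sets were lower on average and 5 higher, from -0.52 to 0.36. A difference of this size is within the spread of the WT arrays, whose SD was 0.34.

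Other regulators of Afp were read from a list of factors that bind or control it. Of 13 measured, 2 fell and none rose with limma's test, 15.4% of the list. Among all genes tested 5.03% passed as lower and 11.9% in either direction. All 13 had negative differences, with a median of -0.29 beside 0.08 for all genes tested. Of the 11699 tested genes outside the set of 10, 6711 had positive differences. What the shared sign of the 13 reflects was not tested. Cebpa, a hepatocyte transcription factor and activator of Afp, fell by 1.48 ± 0.33 (SE) on the log2 scale, from 9.58, 9.52 and 9.69 in WT to 8.39, 7.34 and 8.63 in SRSF3HKO (limma adjusted p = 0.0263). Zhx1, a relative of Zhx2, fell by 0.79 ± 0.21 (SE), from 8.38, 8.05 and 8.61 to 7.55, 7.54 and 7.59 (limma adjusted p = 0.0434). Both calls ended without WT replicate 1, 2 or 3, at limma adjusted p = 0.0990 to 0.105 for Cebpa and 0.0704 to 0.165 for Zhx1, and with Y-linked signal in the model (0.0696 and 0.0788). With averaged probe sets both were lost, Cebpa at a difference of -1.12 (limma adjusted p = 0.0626) and Zhx1 at -0.42 (0.191). Zhx1 also missed the threshold without SRSF3HKO replicate 1 or 3 (limma adjusted p = 0.0786 and 0.0841) and with no filter on dim genes (0.0565). Zhx3 and the repressor Zfhx3, chosen after their values were seen, had differences of -0.37 and -0.03 (limma adjusted p = 0.313 and 0.934).

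Genes whose level in mouse liver is known to depend on Zhx2 fell in 3 of 5 cases, beside 5.03% lower among all genes tested. These 3 are the fatty acid elongase Elovl3, the urinary protein gene Mup3 and the fatty acid hydroxylase Cyp4a12a, which male liver makes in larger amounts than female liver. The list was chosen with earlier results of these data known, so its count is descriptive. Whether the activity of Zhx2 changed was not tested. Mup3 went from 12.68, 12.38 and 11.89 to 6.44, 6.37 and 9.39 (difference -4.92 ± 0.73 SE, limma adjusted p = 0.00718). On WT replicate 3, without Y-linked signal, Elovl3 and Cyp4a12a were at 6.30 and 7.15, against at least 10.87 on the other WT arrays. Against the mean of all WT arrays both were lower in SRSF3HKO by at least 16.9-fold and 17.7-fold (limma adjusted p = 0.0232 and 0.0229). Among arrays with Y-linked signal (2 WT, 1 SRSF3HKO) the differences of Elovl3 and Cyp4a12a were -6.55 and -4.98. Among those without it (1 WT, 2 SRSF3HKO) they were -2.18 and -2.40, so the minimum folds do not hold there. For Mup3 the values were -3.14 with the signal and -5.48 without it. With Y-linked signal in the model the differences were -4.37 for Elovl3, -3.69 for Cyp4a12a and -4.31 for Mup3 (limma adjusted p = 0.0308, 0.0140 and 0.00531). The part of the Y-linked signal was not tested beyond this fit. Elovl3 and Cyp4a12a missed the threshold when either of WT replicates 1 and 2 was dropped (limma adjusted p = 0.0945 to 0.107), and Mup3 when WT replicate 2 was (limma adjusted p = 0.0529). The lipase gene Lpl (0.52) and the cytochrome gene Cyp2a4 (-0.07) did not pass (limma adjusted p = 0.307 and 0.895).

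Other imprinted genes mostly did not pass the test. Of 49 other imprinted genes listed, 40 were measured and 32 tested, and 2 rose and 0 fell with limma's test (6.25% of those tested, beside 6.85% higher and 11.9% in either direction among all genes). The list's median difference was 0.12, and its members ran from -0.93 to 1.23. Blcap, which lies with the imprinted gene Nnat, rose by 0.86 ± 0.19 (SE), from 7.85, 7.68 and 7.71 to 8.51, 8.82 and 8.50, and Nap1l4, the histone chaperone gene next to Phlda2, rose by 0.85 ± 0.21, from 8.89, 8.55 and 8.81 to 9.78, 9.33 and 9.69 (limma adjusted p = 0.0261 and 0.0358). Both missed the threshold when any 1 WT array was dropped (limma adjusted p = 0.0966 to 0.136) and with Y-linked signal in the model, Nap1l4 also without SRSF3HKO replicate 1 or 3, and Blcap also with averaged probe sets (limma adjusted p = 0.0919, at a difference of 0.44).

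Among imprinted genes chosen after their values were seen, Dlk1, another gene of the fetal liver, was at 5.64 to 5.79 in WT and 5.78 to 5.81 in SRSF3HKO (difference 0.07 ± 0.15 SE). Meg3, the noncoding RNA of the Dlk1 region, had 5.61, 4.82 and 5.33 in WT and 7.58, 6.61 and 5.25 in SRSF3HKO, again highest on replicate 1, and did not pass limma's test (difference 1.23 ± 0.52, adjusted p = 0.160). Igf2r, the receptor that clears IGF2, was at 8.18, 7.99 and 8.23 in WT and 9.11, 8.80 and 8.48 in SRSF3HKO (difference 0.66 ± 0.22, limma adjusted p = 0.0842). The growth inhibitor Cdkn1c, in the same imprinted cluster as Phlda2, had a difference of 0.08 ± 0.21 (limma adjusted p = 0.839). Of the genes that establish or maintain imprints, 0 of 8 tested passed limma's test, beside 11.9% of all genes tested. Their differences ran from -0.57 to 0.51, and DNA methylation at imprinted loci was not measured.

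Other fetal liver and liver tumour genes passed in 2 of 20 cases, both higher (10% of the list, beside 6.85% higher and 11.9% in either direction among all genes tested), with a median difference of 0.39. Aldoa, the glycolytic aldolase of fetal liver, rose by 1.29 ± 0.17 (SE), from 9.60, 9.71 and 9.76 to 11.15, 10.87 and 10.93 (limma adjusted p = 0.00485). Prom1, a surface marker of progenitor cells, rose from 5.29, 5.10 and 6.26 to 8.38, 7.54 and 7.81, at least 4.79-fold (limma adjusted p = 0.00683). These 2 calls held under all 16 alternatives. SRSF3HKO replicate 1 had the highest level for 15 of the 25 genes measured in this list. The IGF2 mRNA-binding protein gene Igf2bp3, named after its values were seen, was at 7.14, 6.63 and 7.20 in WT and 7.67, 8.11 and 7.47 in SRSF3HKO and did not pass (difference 0.76 ± 0.25 SE, limma adjusted p = 0.0841).

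**Figure D4:**
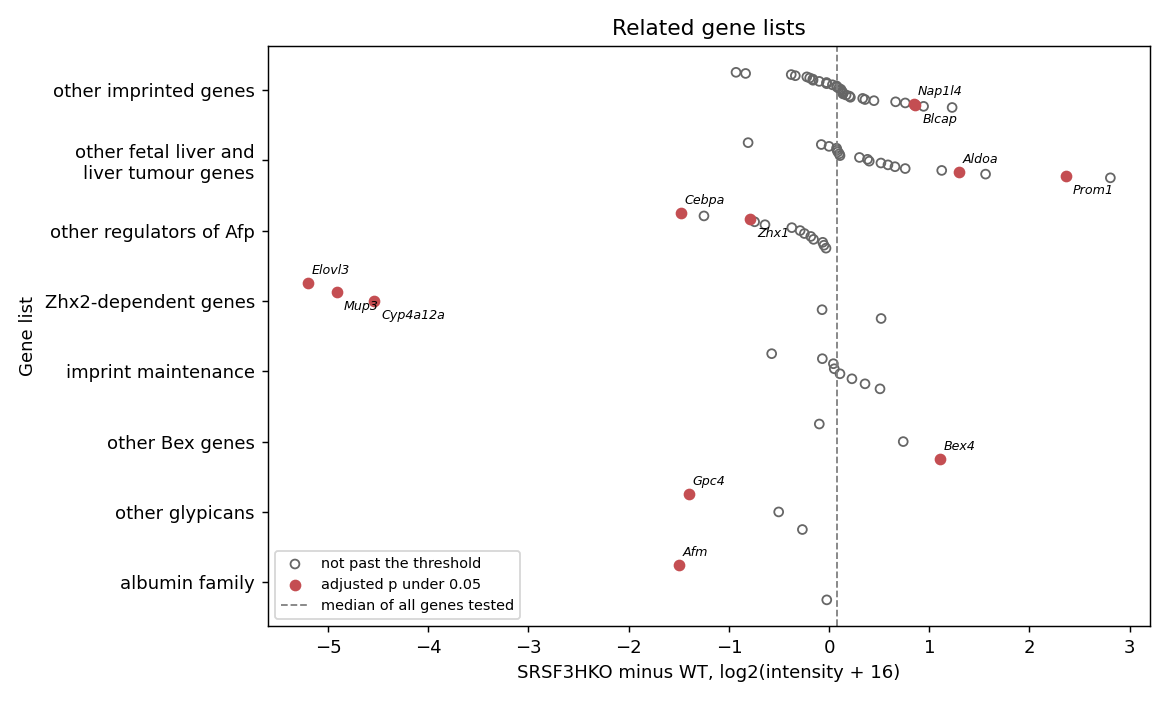
Difference of each tested gene (SRSF3HKO minus WT, log2(intensity + 16)) in the lists related to the 10 genes, with filled red points past limma's adjusted p of 0.05, open points for the rest and the median of all genes tested (0.08) dashed. Among other imprinted genes 2 of 32 points are filled, whereas all 13 other regulators of Afp lie below 0. Of the 11699 tested genes outside the set of 10, 6711 had positive differences.

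The families and neighbours of the higher genes did not follow them uniformly. On the Afp side, Afm, the neighbouring member of the albumin family, fell by 1.498 ± 0.34 (SE), from 10.98 to 11.24 in WT to 10.21, 8.76 and 9.75 (limma adjusted p = 0.0295), whereas Alb had a difference of -0.02 ± 0.14 (limma adjusted p = 0.930). Gpc4, which neighbours Gpc3 on the X chromosome, fell by 1.40 ± 0.22 (SE), from 9.23, 9.11 and 8.87 to 7.72, 7.35 and 7.93 (limma adjusted p = 0.00863). Gpc1 and Gpc6 had differences of -0.50 and -0.27 (limma adjusted p = 0.168 and 0.377), and Gpc5, with a mean below the floor, was not tested. Bex4 rose from 5.34, 5.10 and 6.08 to 6.87, 6.26 and 6.71, at least 2.03-fold (limma adjusted p = 0.0427), while Bex3 (0.74) and Bex2 (-0.10) did not pass (limma adjusted p = 0.118 and 0.829). Bex4 missed the threshold when WT replicate 1 or 2, or SRSF3HKO replicate 1 or 3, was dropped (limma adjusted p = 0.0796 to 0.155), with no filter on dim genes (0.0535) and with Y-linked signal in the model (0.0963). It was not tested with the filter at the median level. Afm missed it when any WT array or SRSF3HKO replicate 3 was dropped (limma adjusted p = 0.0512 to 0.107) and with Y-linked signal in the model (0.0706), and Gpc4 without WT replicate 1 or 2 (0.0561 and 0.0540).

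Taking the nearest measured gene on each side of every member by RefSeq order, a rule set after the data were seen, gave 18 genes outside the set. Of these 11 were tested, 1 rose (Nap1l4) and 2 fell (Afm and Gpc4), beside 6.85% higher and 5.03% lower among all genes tested. Differences ran from -1.498 to 1.04 over the 18. Ins2, the neighbour of Igf2, and Usp29, that of Peg3, were below the floor on all WT arrays, and Tnnt3 beside H19 had a difference of -0.03 (limma adjusted p = 0.931). On either side of Bex1, Tceal5 and Tceal9 had all SRSF3HKO arrays above all WT arrays. So did Nap1l4 beside Phlda2 and Olfr1350, below the floor on all arrays, beside Peg3, while Afm and Gpc4 had all below. Over all genes tested 21.6% separated as higher and 14.0% as lower. Tceal5, below the floor in WT, had the highest difference (1.04) and was not tested. Tceal9 went from 8.14, 7.93 and 8.02 to 9.70, 8.33 and 9.01. It did not pass (difference 0.98 ± 0.33 SE, limma adjusted p = 0.0883). Tceal5 and Tceal9 were picked with their levels already known.

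The 5 genes whose levels followed Afp most closely over the 6 arrays, among 4963 tested genes with a range of at least 1, were Psrc1, Pdlim7, Ccl3, Nup93 and Gng2. Their Pearson's r with Afp was 0.994, 0.989, 0.989, 0.983 and 0.983, a description over 6 arrays that share the 2 genotypes and the high SRSF3HKO replicate 1. The chemokine gene Ccl3 stood at 5.22, 4.83 and 4.94 in WT and 7.53, 7.03 and 5.82 in SRSF3HKO. The microtubule-associated gene Psrc1 stood at 5.24, 4.98 and 5.01 in WT and 6.51, 6.33 and 5.73 in SRSF3HKO, the same order of SRSF3HKO arrays as for Afp.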

How the data were processed

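Liver RNA of 3 WT and 3 SRSF3HKO samples was measured on Affymetrix mouse exon arrays. The submitters' processing notes name PLIER and Affymetrix Expression Console, run on core exon probe sets, and the deposited intensities are on a linear scale. Versions, the background step and the genome build are not given in the sources used here. Grouping follows the genotype label, and replicates are numbered in sample order. Intensities were transformed as log2(intensity + 16). Probe sets with exactly 1 annotated gene (208397 of 229581) were used, older symbols were updated through RefSeq names (GRCm38.p6), and each gene was summarised by the median of its probe sets. A gene entered the test if its 6-array mean exceeded the 90th percentile of 1045 genes for receptors of smell, pheromones and taste, a floor of 5.35 on the log2 scale for genes and 5.62 for probe sets. This left 11709 genes. The genotypes were compared by limma 3.58.1 in R 4.3.3 (moderated test with a mean-variance trend, Benjamini-Hochberg adjustment over all genes tested, threshold 0.05), and the fit was tested on simulated data. Where a gene lay below the floor on an array of the lower group, its fold is a lower bound, with such arrays set at the floor. The number of arrays limits the precision.

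The member genes and the gene lists were chosen with earlier results of these data known. The member genes are therefore described with no p-value. Besides them, the text names up to 4 called genes of each list by adjusted p, all measured genes of lists with at most 5 genes, Srsf3, and the 5 genes most like Afp, and it says where others were chosen after their values were seen. The alternatives tried were median centring, quantile normalization, pseudocounts of 1 and 64, averaging probe sets, testing dim genes too or only genes above the median level, eBayes without trend or robust, the Y-linked signal as a covariate, and dropping 1 array at a time. The values of member and list genes within arrays with and without Y-linked signal were added after the data were seen. Figures were drawn with matplotlib 3.10.9 in Python 3.11.15.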

Additional observations from a re-analysis of the deposited data

How the results depend on the processing

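The differences of the 10 genes were recomputed under 10 other settings and without each array, and the sign was kept in all of the 100 and 60 values. For the 8 genes whose groups did not overlap, the sign could not change without 1 array. Under other settings the values moved by more than the spread between replicates in 9 of 100 cases. The genes concerned were Bex1 (2.41 to 5.51), Gpc3 (1.56 to 2.59), Impact (1.37 to 1.89) and Phlda2. Without an array the count was 0 of 60, which was fixed in advance, since leaving out 1 of 3 arrays cannot move a mean that far. The difference of H19 still ran from 2.53 to 5.49 and that of Igf2 from 0.87 to 2.43 without 1 array. The number of member genes that passed the test was 3 to 7 without 1 array and 5 to 6 under other settings.

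The number of changed genes, 1391, was 244 to 2155 without 1 array and 618 with Y-linked signal in the model. Without WT replicates 1, 2 and 3 it was 244, 274 and 434, and without SRSF3HKO replicate 2 it was 2155. Other settings gave 1160 to 1495. With median centring 633 were higher and 771 lower, against 802 and 589. The 2 called genes among other imprinted genes became 1 with the mean over probe sets, 0 with the Y-linked covariate, and 0 to 3 without 1 array. The 2 among other fetal liver genes were 2 to 5 without 1 array. The 2 among other regulators of Afp were 1 with no filter, 1 with the mean over probe sets (neither Cebpa nor Zhx1), 0 with the Y-linked covariate, and 0 to 2 without 1 array. The causes were not tested. Of 17 called list genes named above, 14 lost the call without WT replicate 1 and 15 without WT replicate 2, with the direction kept.

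No paired analysis was possible because the labels give the 2 genotypes no shared replicate numbers. Signal near the floor limits Afp, Bex1, Phlda2 and Igf2 in WT, so their ratios are bounds or understated.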
